A study of Mus musculus with 6 samples.

Results

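The genes described here are 9 genes of the interferon response and of MHC class I antigen presentation, chosen by name: Ifngr1, Jak1, Stat2, Irf1, Irf9, H2-D1, H2-K1, B2m and Tap1. Of these, 5 were found by gene name among the 9120 genes of the expression table, namely Jak1, Stat2, Irf1, H2-D1 and Tap1. The other 4 (Ifngr1, Irf9, H2-K1 and B2m) were not analysed here. The 5 genes were above 1 FPKM in each of the 6 libraries, so all 5 passed the filter on low values. FPKM is a read level corrected for transcript length and for library size.

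The libraries came from MPC5, a mouse kidney podocyte line, by RNA sequencing of total RNA. All cells were expanded at 33 °C in medium with 20 U/ml mouse interferon gamma, then kept for 7 days at 37 °C without interferon gamma, and all were kept in high glucose (30 mM). The control group (3 libraries) received scrambled siRNA and the METTL3-knockdown group (3 libraries) siRNA against METTL3, with a change of medium after 6 h. All libraries come from 1 cell line, and whether the replicates were separate cultures rests on the series' design text, which calls them biological. Mettl3 itself, the m6A methyltransferase gene, was at 5.87, 6.34 and 5.75 FPKM in the controls (replicates 1, 2 and 3, in this order here and throughout) and at 3.68, 3.85 and 3.90 FPKM in the knockdown libraries. The groups did not overlap (log2 difference -0.54, SE 0.10, limma adjusted p = 0.799, which did not pass).

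Interferon gamma binds a receptor whose chains carry the kinases JAK1 and JAK2. These phosphorylate STAT proteins, whose dimers bind a DNA motif called GAS in genes such as Irf1. Type I interferons act through JAK1 and TYK2 on a complex that holds STAT2 and IRF9 and binds another motif, the ISRE. The induced genes include those of MHC class I, which shows peptides from inside the cell to T cells. Lines of the MPC type are made with a temperature-sensitive T antigen under an interferon-inducible class I promoter, which is why interferon gamma is in the growth medium and is withdrawn for differentiation.

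The promoter letters of 4 genes whose values are given further on are shown to set windows with either motif beside a window without one. The windows are the 250 bases before a RefSeq start on GRCm38.p6, read 5′ to 3′ on the strand of the gene. GAS was searched as TTCNNNGAA, which reads the same on both strands, and the ISRE core as GAAA, any 2 bases and GAAA on both strands; matches are in capitals and may overlap. Irf1 (chr11:53769764-53770013, plus strand) holds a GAS match that starts 90 bases before the start. The window of another RefSeq start of Irf1 (chr11:53770223-53770472), not shown, holds neither motif. Stat2 (chr10:128270248-128270497, plus strand) holds an ISRE core on its opposite strand. Tap1 (chr17:34187306-34187555, plus strand) holds neither. Oas1a (chr5:120907526-120907775, minus strand), an interferon-stimulated gene that is not among the 9, is shown as a window with both motifs and was chosen after its values were seen.
Irf1: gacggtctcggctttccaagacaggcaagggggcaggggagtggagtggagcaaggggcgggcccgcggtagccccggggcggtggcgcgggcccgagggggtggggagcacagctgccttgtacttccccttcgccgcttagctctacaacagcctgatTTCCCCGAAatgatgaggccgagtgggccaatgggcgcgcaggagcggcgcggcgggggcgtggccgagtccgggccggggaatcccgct
Stat2: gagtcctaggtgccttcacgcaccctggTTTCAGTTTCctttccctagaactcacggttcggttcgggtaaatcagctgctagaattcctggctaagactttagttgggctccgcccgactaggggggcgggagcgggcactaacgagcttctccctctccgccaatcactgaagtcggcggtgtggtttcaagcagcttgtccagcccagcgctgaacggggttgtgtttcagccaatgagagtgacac
Tap1: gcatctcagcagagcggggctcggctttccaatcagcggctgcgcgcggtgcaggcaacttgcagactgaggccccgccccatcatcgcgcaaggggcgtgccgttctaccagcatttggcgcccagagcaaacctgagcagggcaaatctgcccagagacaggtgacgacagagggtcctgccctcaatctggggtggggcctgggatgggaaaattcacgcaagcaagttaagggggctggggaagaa
Oas1a: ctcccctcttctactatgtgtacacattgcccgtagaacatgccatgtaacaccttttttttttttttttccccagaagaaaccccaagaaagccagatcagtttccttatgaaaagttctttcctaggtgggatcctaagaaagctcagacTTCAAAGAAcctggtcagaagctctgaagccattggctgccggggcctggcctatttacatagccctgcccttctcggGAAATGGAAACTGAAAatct

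Over all 32851 RefSeq windows of this length, 7.02% held the GAS letters and 2.98% the ISRE core. The windows of Jak1 and H2-D1 held neither, but all 250 bases of the H2-D1 window and 59 of the Jak1 window are exon in GENCODE M21. A match or its absence describes these letters only.

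Before the results, the libraries were compared. Replicate 3 of both groups has a title code of another form than the other 4 libraries and stood apart on the first principal component (44.3% of the variance). Both the knockdown and replicate 3 against replicates 1 and 2 are therefore given for each gene, replicate 3 with the knockdown in the same model. FPKM summed to 173721 to 176526 per library. The table gives no counts, so the depth behind each value is unknown, and in bulk RNA fewer cells of a type and less RNA per cell cannot be told apart.

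Of the 5 genes, all had a lower mean in knockdown than in control, and none passed the test between the groups. A log2 difference below 0 was found in 45.3% of all genes tested. By limma, 0 of 8047 genes passed an adjusted p of 0.05 (0%), while 366 (4.55%) had an unadjusted p under 0.05, none of them among the 5 (2.1% of all genes had one with a lower level). The groups overlapped in each of the 5, while they did not overlap in 10.1% of all genes tested and 4.01% had every knockdown library below every control. The replicate 3 difference was the larger in each of the 5, by little in Tap1 (-0.13 against -0.12). Irf1 and H2-D1 fell in replicate 3 (limma adjusted p under 0.05), against 12.6% of all genes that were called lower there. The 2 tests are not alike, since only the replicate 3 model held both the group and the code form. With both in the model, 0 of 8047 genes passed for the knockdown.

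Jak1 encodes the kinase shared by the receptors of interferon gamma and of type I interferons. It was the most abundant of the 5 per length, at 43.5, 37.7 and 35.6 FPKM in the controls and 39.1, 38.9 and 33.6 FPKM in the knockdown libraries. The groups overlapped, and replicate 3 held the lowest value of each group. The mean was 38.9 ± 4.06 FPKM in control against 37.2 ± 3.12 in knockdown (SD, n = 3 each), a difference of -0.06 in log2(FPKM + 1) (SE 0.11, limma adjusted p = 0.998). Between replicate 3 and the rest the difference was -0.19 (SE 0.07, limma adjusted p = 0.105), which did not pass, although both replicate 3 libraries lay below the other 4, an order found in 27.8% of all genes tested. Jak1 is encoded on the minus strand of chromosome 4, between 101152367 and 101265282 (GRCm38, as for all genes here).

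Stat2 encodes the STAT of the type I interferon complex. It was a low transcript, at 2.88, 3.19 and 2.15 FPKM in the controls and 1.95, 2.85 and 1.93 FPKM in the knockdown libraries. In each same-numbered pair the knockdown library was the lower, but knockdown replicate 2 lay above control replicate 3, so the groups overlapped. The mean was 2.74 ± 0.535 FPKM in control and 2.24 ± 0.525 in knockdown (SD, n = 3 each), a difference of -0.21 (SE 0.17, limma adjusted p = 0.998). Replicate 3 differed from the rest by -0.28 (SE 0.14, limma adjusted p = 0.210), which did not pass, and knockdown replicate 1 lay between the replicate 3 libraries. Stat2 lies on the plus strand of chromosome 10 from 128270559 to 128292849.

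Irf1 encodes a transcription factor that is an early target of interferon gamma signalling and activates class I genes. It measured 3.72, 3.33 and 1.97 FPKM in the controls and 2.24, 2.33 and 1.42 FPKM in the knockdown libraries. It varied most among the 5 genes, with a range of 0.96 in log2(FPKM + 1) over the 6 libraries. Controls 1 and 2 were the highest, knockdown replicate 3 was the lowest, and control replicate 3 lay below knockdown replicates 1 and 2, so that the groups overlapped in that library alone.

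The mean of Irf1 was 3.01 ± 0.919 FPKM in control and 2.00 ± 0.497 in knockdown (SD, n = 3 each), or 33.7% lower. The log2 difference of -0.41 (SE 0.22) did not pass (limma adjusted p = 0.998; exact two-sided permutation p = 0.3, where 0.1 is the smallest possible). The differences of pairs 1, 2 and 3 were -0.55, -0.38 and -0.29. With the code form as a covariate the unadjusted p was 0.00549, where 12.1% of all genes had one under 0.05 (5.69% with a lower level), and the limma adjusted p was 0.226. With the replicate block it was 0.331.

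Irf1 fell in replicate 3, from 2.91 ± 0.739 FPKM (SD, n = 4) in replicates 1 and 2 to 1.70 ± 0.389 (SD, n = 2), which is 41.5% lower. The log2 difference was -0.52 (SE 0.10, limma adjusted p = 0.0202). An exact two-sided permutation gave p = 0.133, which is its lowest possible value with 2 libraries against 4. The call was lost without knockdown replicate 2 (limma adjusted p = 0.0522), without knockdown replicate 3 (0.0904) and without control replicate 3 (0.167). Irf1 spans 53770014 to 53778374 on the plus strand of chromosome 11.

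H2-D1 encodes a classical MHC class I heavy chain. It measured 11.4, 11.2 and 8.20 FPKM in the controls and 9.74, 9.34 and 7.84 FPKM in the knockdown libraries. As in Irf1, the order was controls 1 and 2 on top, knockdown replicates 1 and 2 next, and both replicate 3 libraries at the bottom. The mean was 10.3 ± 1.80 FPKM in control and 8.97 ± 1.00 in knockdown (SD, n = 3 each), a difference of -0.17 (SE 0.15, limma adjusted p = 0.998). With the code form as a covariate the SE was 0.07 and the limma adjusted p was 0.429.

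H2-D1 fell in replicate 3 from 10.4 ± 1.03 FPKM (SD, n = 4) to 8.02 ± 0.252 (SD, n = 2), by 23.1%. The log2 difference was -0.34 (SE 0.08, limma adjusted p = 0.0305). The call did not hold when any single library was left out (limma adjusted p of 0.0538 to 0.223), with the replicate block (0.0549) or after median centring (0.0568). The gene lies on the plus strand of chromosome 17 from 35262730 to 35267499. Of the 50-base stretches of its longest coding transcript, 14.3% occur exactly in a transcript of another gene, with 7.40% in H2-Q1 and 5.31% in H2-K1. The sources used here do not say how such reads were shared out, so the level of H2-D1 is uncertain. The share of stretches does not measure by how much.

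Tap1 encodes a subunit of the transporter that moves peptides into the endoplasmic reticulum for loading onto class I. It measured 1.62, 2.26 and 1.52 FPKM in the controls and 1.46, 1.70 and 1.49 FPKM in the knockdown libraries. Control replicate 2 stood above the other 5 libraries, which lay close together, and the groups overlapped. The difference was -0.12 (SE 0.14, limma adjusted p = 0.998) for the knockdown and -0.13 (SE 0.14, limma adjusted p = 0.539) for replicate 3. Without control replicate 2 the knockdown difference was -0.01. Tap1 spans 34187553 to 34197225 on the plus strand of chromosome 17.

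**Figure D1:**
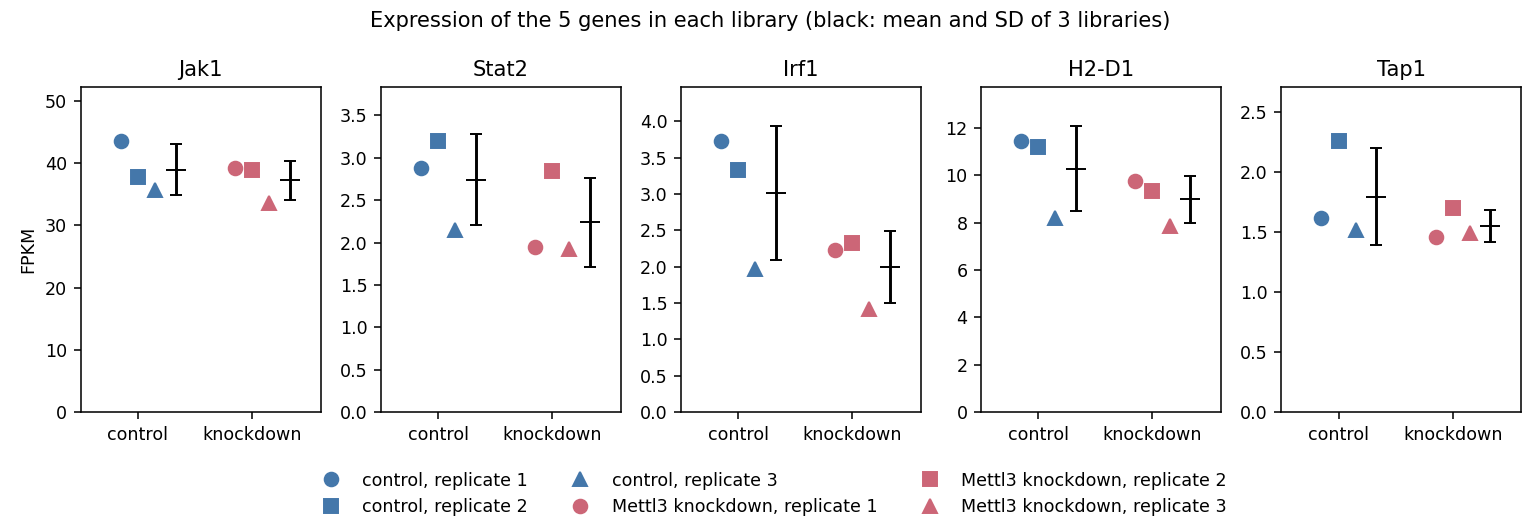
FPKM (vertical axis, from 0, a scale of its own for each gene) of Jak1, Stat2, Irf1, H2-D1 and Tap1 in the 3 control and 3 Mettl3 knockdown libraries, with a symbol for each replicate number and the mean ± SD in black. Replicate 3 (triangles) is the lowest control in each panel, and the groups overlap in all 5 genes.

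The order of the mean levels per length over the 6 libraries was Jak1 (38.1 FPKM), H2-D1 (9.62), Irf1 (2.50), Stat2 (2.49) and Tap1 (1.67). Irf1 and Stat2 did not differ beyond their spread, and the ranges of both overlapped that of Tap1. Every value of Jak1 lay above every value of H2-D1, and every value of H2-D1 above those of the other 3. No member ranged over more than 1 unit in log2(FPKM + 1), so no gene of like pattern was sought.

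Within same-numbered pairs, Stat2, Irf1, H2-D1 and Tap1 were lower in the knockdown library in 3 of 3 pairs and Jak1 in 2 of 3. The numbers do not tell replicate 1 from 2, so these pairs are by label only. In Tap1, knockdown replicate 2 (1.70 FPKM) lay above control replicate 1 (1.62 FPKM). In Stat2, Irf1 and H2-D1, knockdown replicates 1 and 2 both lay below control replicates 1 and 2. Being lower in all 3 pairs was found in 15.3% of all genes tested. The smallest pair difference belonged to replicate 3 in Stat2 (-0.11), Irf1 (-0.29), H2-D1 (-0.06) and Tap1 (-0.01). The knockdown difference was not shown to depend on the code form: 4 of 8047 genes passed the limma interaction test (0.0497%), none of them among the 5, whose adjusted p-values were 0.995.

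**Figure D2:**
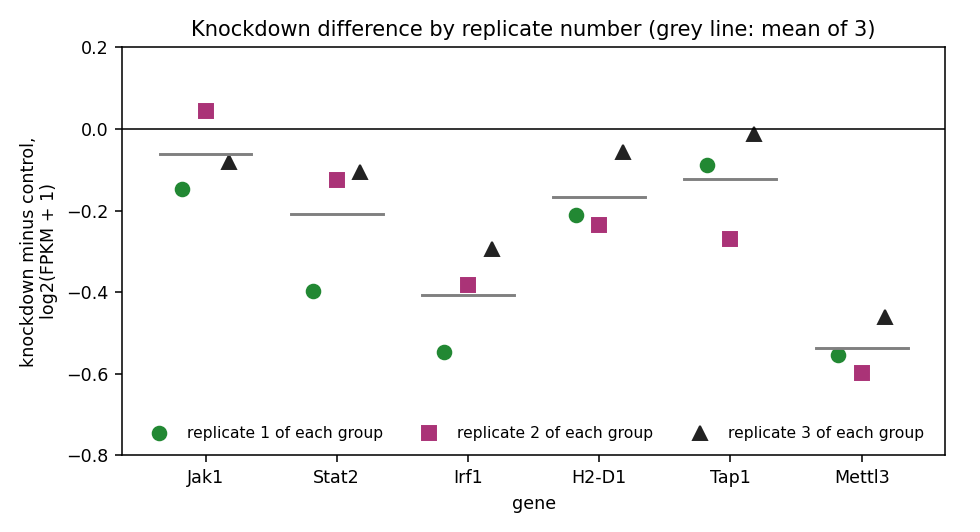
Difference of knockdown and control in log2(FPKM + 1) (vertical axis) within each replicate number for the 5 genes and for Mettl3 (horizontal axis), with the mean of the 3 pairs as a grey line. Among the 5 genes, 1 pair (Jak1, replicate 2) lies above 0, and the differences of Irf1 lie between -0.55 and -0.29. Pairs are by label, and the numbers do not tell replicate 1 from 2.

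The rest of the pathway was read from 9 lists by role, which name 172 genes. Of these 66 were in the table and 58, the 5 genes included, were tested. Between knockdown and control none of the 58 passed (0% of all genes did), and 35 were below 0, where 45.3% of all genes were. The median was -0.05, where the median of all genes tested was 0.02. An unadjusted p under 0.05 was found for 0 of the 58 without a covariate, where 4.55% of all genes had one, and for 4 with the code form, where 12.1% did. Every knockdown library lay below every control in 4 of the 58 (Stat6, Ptpn11, Irf2bp1 and Trafd1, named after their values were seen) and above in 1 (Ifitm2), orders found in 4.01% and 6.06% of all genes. Replicate 3 gave more calls: by limma, 20 of the 58 genes fell and 1 rose (34.5% lower, against 12.6% of all genes), with a median of -0.28 against -0.06 for all genes. After median centring 15 fell and 1 rose, where 8.95% of all genes were called lower and 8.79% higher, in place of 12.6% and 6.23%. With any single library left out fewer genes were called, among the pathway genes and among all genes tested.

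Other markers also moved with replicate 3. Of 9 mesangial and fibroblast markers 7 were tested. Acta2, Tagln, Col1a1 and Col1a2 rose and Pdgfrb fell, where 6.23% of all genes were called higher and 12.6% lower. Des and Pdgfra did not pass. The summed level of the list was 1887 to 2436 FPKM in replicates 1 and 2 and 4036 and 4182 FPKM in replicate 3. Most of this sum was Col1a1, at 1464 to 1951 FPKM in replicates 1 and 2 and 3113 and 3285 FPKM in replicate 3. The podocyte list had 7 of 16 genes in the table, of which 5 were tested. Kirrel fell (limma adjusted p = 0.00775), which is 20.0% of the 5, against 12.6% of all genes called lower. Actn4, Tjp1, Cd2ap and Magi2 did not pass. Wt1 (0.372 to 0.714 FPKM) and Synpo (0.328 to 1.25 FPKM) were below the filter on low values and were not tested. The summed levels of the podocyte list were 190 to 202 FPKM in replicates 1 and 2 and 184 and 185 FPKM in replicate 3. Most of this sum was Actn4, at 104 to 113 FPKM over the libraries. The slit diaphragm gene Nphs1, which defines podocytes, was not analysed here. Of 12 immune cell markers only Csf1r was in the table, at 0.838 to 1.10 FPKM in replicates 1 and 2 and at 0.299 and 0.121 FPKM in replicate 3. Of 6 tubule markers only Aqp1 was in the table, and of 6 endothelial markers none was. Aqp1 was at 0 to 0.536 FPKM in replicates 1 and 2 and at 1.53 and 1.35 FPKM in replicate 3. Csf1r and Aqp1 were below the filter on low values and were not tested. Every gene in the table had a mean of at least 0.501 FPKM in control or in knockdown. Over replicates 1 and 2 alone, the Aqp1 means were below that level (0.426 FPKM in control and 0.233 FPKM in knockdown). The part of these marker differences in the results on replicate 3 was not tested.

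Among receptors and kinases, 3 of 9 genes were tested and none passed in replicate 3, where 18.8% of all genes did. Jak2, which partners Jak1 at the interferon gamma receptor, measured 25.2, 25.2 and 18.8 FPKM in the controls and 19.7, 21.7 and 19.1 FPKM in the knockdown libraries. Control replicates 1 and 2 were above the other 4 libraries, which lay close together. Tyk2, the kinase of the type I receptor, stayed between 1.61 and 2.21 FPKM.

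Among the STAT genes, Stat3 fell in replicate 3. Stat3, which mainly serves cytokines of the interleukin-6 family, measured 28.6, 28.0 and 18.4 FPKM in controls and 32.4, 32.5 and 19.0 in knockdown (log2 difference in replicate 3 -0.67, SE 0.06, limma adjusted p = 0.00233). Stat6, the STAT of interleukin-4, measured 11.97, 12.27 and 12.70 FPKM in the controls and 11.12, 11.14 and 10.77 FPKM in the knockdown libraries. It passed neither for the knockdown (-0.15, SE 0.08, limma adjusted p = 0.998) nor for replicate 3 (0.01, SE 0.07, limma adjusted p = 0.934).

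Of the 7 tested genes in the IRF list, Irf1 alone passed in replicate 3 (14.3%, against 12.6% of all genes called lower). Irf2, which competes with Irf1 for its sites, measured 4.70 and 3.76 FPKM in replicate 3 and 5.32 to 7.16 in the other 4 libraries, and Irf5 measured 1.92 and 1.40 FPKM against 1.93 to 2.82; neither passed (limma adjusted p = 0.0860 and 0.132). The IRF2-binding proteins Irf2bp1 and Irf2bp2 differed by -0.02 and -0.03 in log2. The related Irf2bpl differed by -0.195 (SE 0.09, limma adjusted p = 0.166) and did not pass. Both of its replicate 3 libraries lay below the other 4, an order found in 27.8% of all genes tested.

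Of 11 tested negative regulators of JAK-STAT signalling, Socs3, Socs5 and Ptpn1 fell in replicate 3 (27.3%, against 12.6% of all genes called lower). The list as a whole had 6 genes below 0 and 5 above, where 59.9% of all genes were below 0. Its median was -0.03 against -0.06 for all genes. Socs1 was at 5.81 FPKM in control replicate 3 and at 3.00 to 4.81 in the other libraries, and did not pass (0.24, SE 0.19, limma adjusted p = 0.437). Ptpn1 and Socs1 were named after their values were seen. Socs3, a STAT-induced inhibitor of JAK kinases, measured 19.5, 17.3 and 3.49 FPKM in the controls and 14.1, 15.5 and 3.89 FPKM in the knockdown libraries. It was 77.7% lower in replicate 3 (log2 difference -1.90, SE 0.12, limma adjusted p = 7.03e-04), more than any other of the 58 genes on the log2 scale. Its window 250 bases before the start holds a GAS match. The phosphatase genes Ptpn2 and Ptpn11 and the Pias2 gene did not pass in either comparison.

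Of the MHC class I chains, 5 of 23 were in the table and 3 were tested. H2-Q1, a class I gene next to H2-D1, measured 6.87, 8.61 and 4.84 FPKM in controls and 7.42, 6.52 and 4.67 in knockdown, and fell in replicate 3 (log2 difference -0.53, SE 0.11, limma adjusted p = 0.0235). H2-Q2 was listed at 0 in control replicate 1 and knockdown replicate 3, at 0.939 in control replicate 3 and at 1.36 to 1.95 FPKM in the other 3. H2-Q6 was listed at 3.36 FPKM in knockdown replicate 2 and at 0 in the other 5, and H2-Q7 at 2.54 FPKM in control replicate 1 and below 0.1 in the others. A level in 1 library alone, among genes that share sequence, is uncertain.

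Of 11 tested genes of class I peptide supply and loading, 7 fell in replicate 3 and none rose. The share called lower was 63.6%, against 12.6% of all genes, and 6.23% of all genes were called higher. Tap2, the partner of Tap1 in the peptide transporter, measured 6.90, 7.34 and 3.72 FPKM in the controls and 5.86, 7.16 and 3.43 FPKM in the knockdown libraries. It was 47.5% lower in replicate 3 (log2 difference -0.77, SE 0.10, limma adjusted p = 0.00555). Tap1 did not pass, and this difference between the partners was not tested. The proteasome activator genes Psme1 and Psme2 fell by 0.47 (SE 0.07) and 0.50 (SE 0.12) on the log2 scale, and the immunoproteasome subunit gene Psmb10 (named after its values were seen) by 0.91 (SE 0.17), from 3.17 to 5.20 FPKM down to 1.61 and 1.63 FPKM. Psme3, a related activator of the nuclear proteasome, measured 42.7 to 46.4 FPKM and differed by -0.01 (SE 0.05). The endoplasmic reticulum chaperones Calr and Pdia3 fell by 0.21 each (limma adjusted p = 0.0200 and 0.0399), and Canx did not pass (0.0633).

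Psme2 was 1 of 2 genes of the lists with an unadjusted interaction p under 0.05 (0.00425). Its knockdown differences were -0.36, -0.26 and 0.25 in pairs 1 to 3. The other was Ifitm3, an antiviral membrane protein gene, which measured 23.9, 25.5 and 22.1 FPKM in controls and 26.6, 26.9 and 13.2 in knockdown (pair differences 0.15, 0.08 and -0.70; unadjusted p = 0.00134). Over all genes neither passed (limma adjusted p = 0.800 and 0.467), and 4.65% of all genes had an unadjusted interaction p under 0.05, 2.37% with a negative sign.

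Of 71 named interferon-stimulated genes 14 were tested, of which 5 fell and 1 rose in replicate 3. The share called lower was 35.7%, where 12.6% of all genes were called lower and 6.23% higher. Gbp2, a guanylate-binding protein gene induced by interferon gamma, measured 9.85, 9.29 and 3.49 FPKM in the controls and 5.10, 8.88 and 2.95 FPKM in the knockdown libraries (log2 difference in replicate 3 -1.10, SE 0.19, limma adjusted p = 0.0133). Oas1a, whose product makes oligoadenylates on double-stranded RNA and whose window is printed above, measured 4.53, 5.31 and 1.72 FPKM in controls and 2.86, 4.51 and 2.16 in knockdown (-0.83, SE 0.20, limma adjusted p = 0.0337). Adar, the RNA adenosine deaminase gene, fell by 0.54, Ifih1, an RNA sensor gene, by 0.53 and Lgals3bp by 0.38. Wars, a tRNA synthetase gene that interferon gamma induces, rose, with 15.8 and 12.9 FPKM in replicate 3 against 10.0 to 10.9 in the other 4 libraries (0.42, SE 0.09, limma adjusted p = 0.0272). Ifitm2 measured 53.4 to 56.9 FPKM in knockdown and 38.8 to 50.4 in control, without overlap, and did not pass (0.25, SE 0.12, limma adjusted p = 0.998).

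Of the nucleic acid sensing genes 4 of 14 were tested. Ifih1, which is also among the interferon-stimulated genes, was the one that fell in replicate 3 (25.0%, against 12.6% of all genes). Tbk1, the kinase that activates IRF3, was at 4.24 to 5.78 FPKM. Traf3, an adaptor of the same route, was at 5.48 FPKM in control replicate 3 and at 3.17 to 3.76 in the other 5 libraries. None of the 7 MHC class II genes was analysed here.

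**Figure D3:**
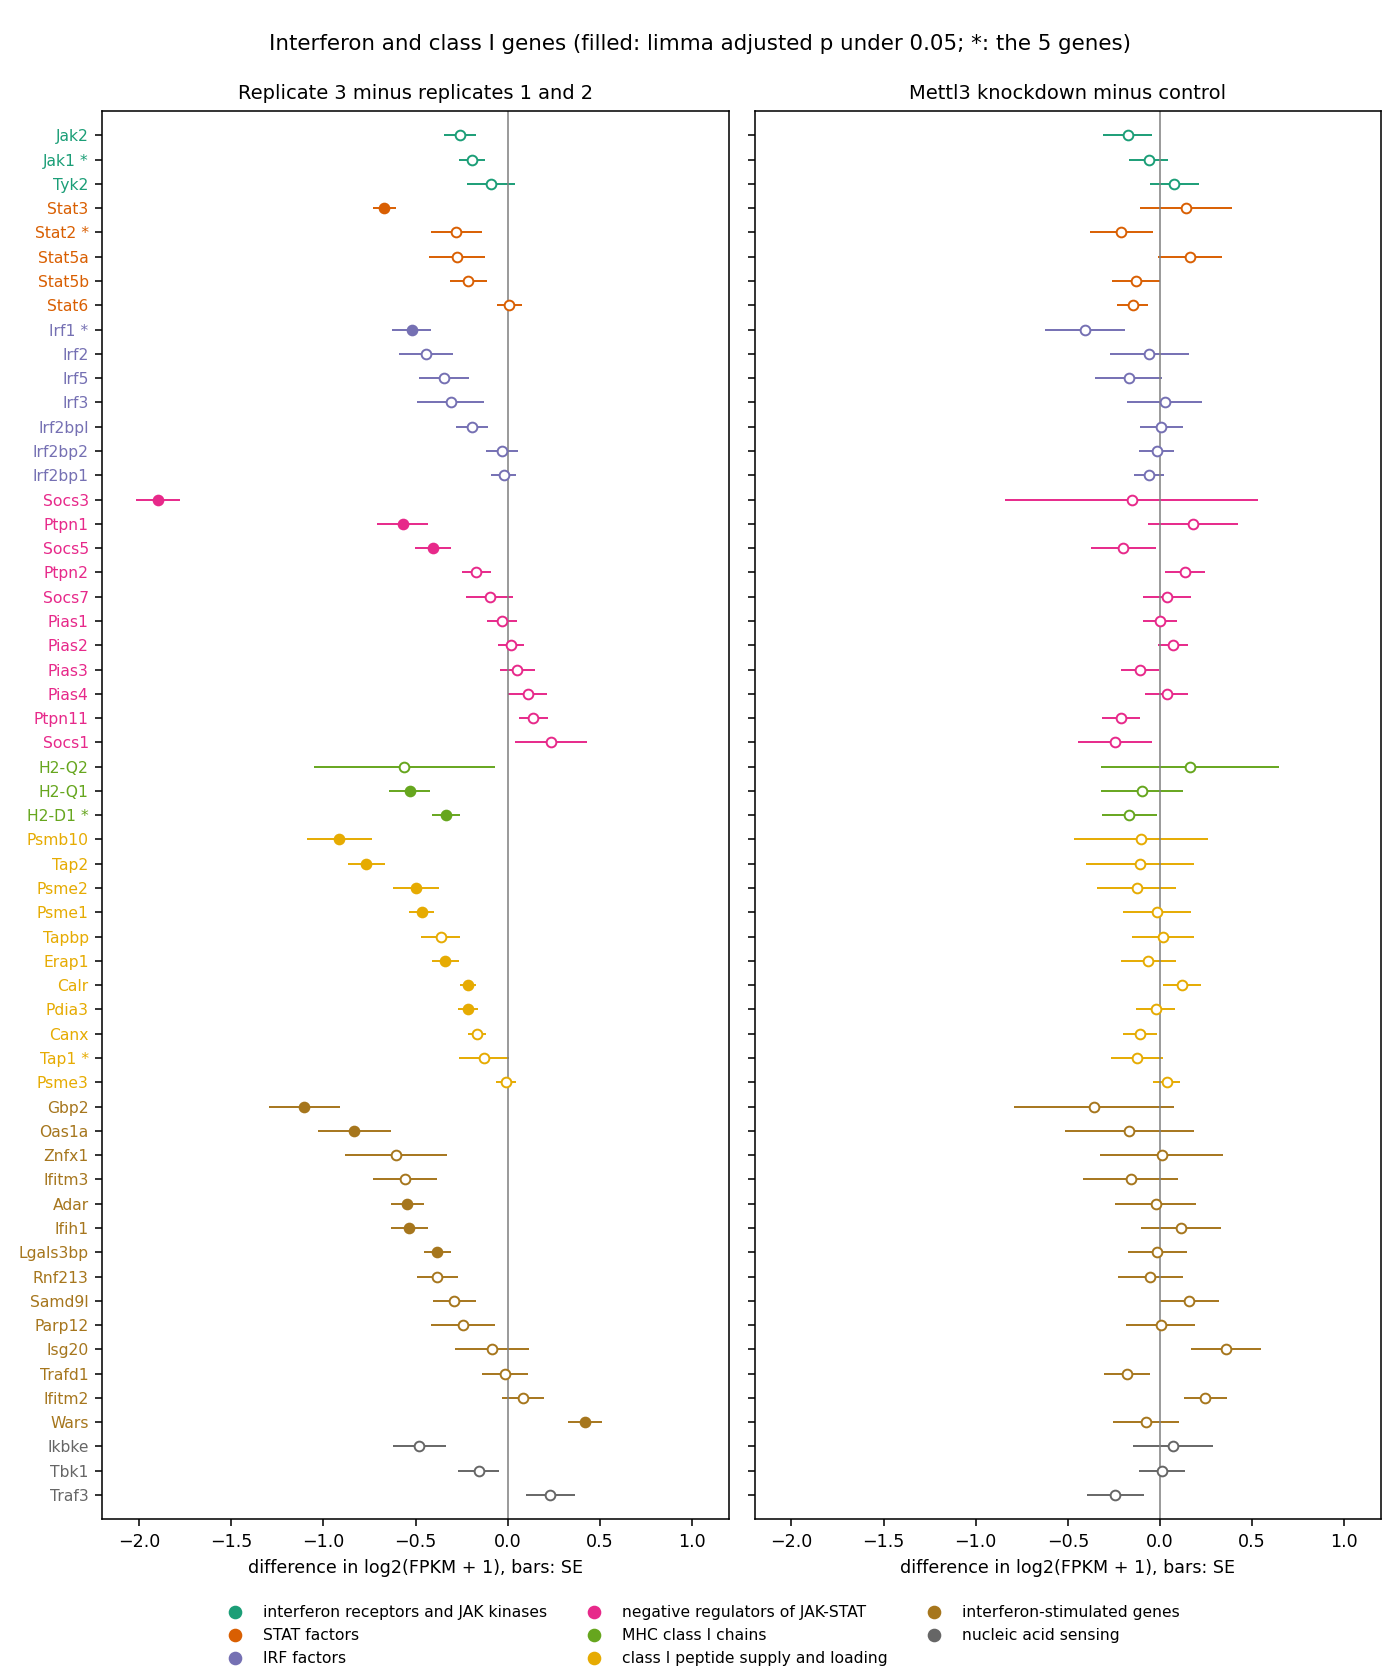
Differences in log2(FPKM + 1) with their SE (horizontal axis) for 57 tested interferon and class I genes, coloured by list, for replicate 3 against replicates 1 and 2 (left) and for knockdown against control (right). Filled points passed a limma adjusted p of 0.05: 20 on the left, of which 19 lie below 0, and 0 on the right.

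In the promoter windows, 49 of the 58 tested genes were matched in RefSeq, and 10 of them (20.4%) held a GAS or ISRE core match in at least 1 window, against 11.1% of all genes. Of the 20 genes that fell in replicate 3, 16 were matched and 4 held a match (25.0%), namely Irf1, Socs3, Gbp2 and Oas1a. Of the 38 others 33 were matched and 6 held one (18.2%), namely Stat2, Irf2, Irf2bp1, Isg20, Ifitm2 and Socs1. The difference between these shares was not tested.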

How the data were processed

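RNA was sequenced in 6 libraries, grouped by title, 3 in each group. The deposited values are gene-level FPKM, per the file headers. Tools are listed without a role in the submitters' processing notes (StringTie 1.2.2, HISAT2 2.0.4, R 2.10.0, cutadapt 1.17, FastQC 0.11.7), beside the build mm9, yet 7980 of the 9120 genes matched GENCODE M21 by versioned identifier and each had its span on GRCm38, so coordinates are GRCm38. Strand and overlap rules are not given in the sources used here. One line of the table was emptied for this work. Whether low values are whole multiples of a read could not be settled, since annotated transcript lengths were used and no level by chance was worked out. At best 28.0% of the 150 lowest in single-transcript genes came within 0.05 of a whole read.

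FPKM of at least 1 in 3 or more libraries was required (8047 genes). Log2(FPKM + 1), on which the change of low genes is understated, was modelled by limma 3.58.1 (R 4.3.3; intensity trend, two-sided; Benjamini-Hochberg over all genes, threshold 0.05), checked on simulated data. The models held the group alone, the group with the code form (replicate 3), and their interaction. Permutation tests were exact (scipy 1.17.1). If replicates were not separate cultures, p-values measure only technical spread. Same-numbered libraries deviated together (correlations 0.23, 0.20 and 0.56 for numbers 1, 2 and 3), but control 1 with knockdown 2 (0.23) and control 2 with knockdown 1 (0.26) did so as much, so the numbers set replicate 3 apart and do not tell 1 from 2. A replicate block was tried, with other pseudocounts, filters, scalings, variance models and each library left out.

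Members and lists were chosen with earlier results of these data known. Beyond the members and Mettl3, genes were named, per list, as the 4 highest in level and the 2 smallest unadjusted p in each comparison, and not all are printed. Psmb10, Psme3, Ptpn1, Socs1, Oas1a, H2-Q6, H2-Q7 and the single marker genes were named after their values were seen. One gene of the lists is counted but not otherwise reported here.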

Additional observations from a re-analysis of the deposited data

How the results depend on the processing

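Of the alternative values for the 5 genes in knockdown against control, 70 kept direction and side of the threshold and 2 turned. Jak1 turned to 0.0183 without control replicate 1 and to 0.0082 without knockdown replicate 3; over leaving out each library it ranged from -0.12 to 0.02. In replicate 3, 53 values kept their side of the threshold, 14 no longer passed and none turned. H2-D1 was not called after median centring (-0.27), quantile normalization (-0.27), with the replicate block (-0.34) or without group in the fit (-0.34), and ranged from -0.42 to -0.25 without each library. Irf1 was not called without group in the fit (-0.52) and ranged from -0.61 to -0.44 without each library. The replicate block changed no other call of the 5 genes.

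Between knockdown and control the genes called were 1 with a robust variance and 2 within the HG-coded libraries, in place of 0, and 0 to 2 without each library. In replicate 3 they were 343 to 1204 without each library, in place of 1513, and for the pathway genes 4 to 16, in place of 21 (a count added after seeing the data). The interaction gave 2 in place of 4 with a filter at 5 FPKM, which also left Irf1, Stat2 and Tap1 untested. Fewer samples remain without a library; the other causes were not tested. The depth behind the FPKM is unknown, so counting error could not be given.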
